A study of Mus musculus with 32 samples.

Results

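The livers compared here came from female mice fed CDAHFD for 8 weeks, and the comparison was between 4 Cyp2b-null and 4 wildtype (WT) animals. CDAHFD is a high fat diet, listed by the study as 62% fat without stating whether by weight or by energy. It lacks choline, supplies defined L-amino acids in place of protein and holds 0.1% methionine. The 8 libraries were the female CDAHFD columns of a raw count table, chosen by their sample names, out of 32 libraries in the series. The whole series crossed genotype, diet (CDAHFD or normal chow, ND) and sex, with 4 livers in each group. The mice were C57BL/6 by their labels, the J substrain by the study's methods, and were 10 weeks old at the start of the diets. The Cyp2b-null line carries a CRISPR/Cas9 deletion of Cyp2b9, Cyp2b10 and Cyp2b13, while the WT mice were purchased and acclimated. Genotype and the origin of the animals therefore cannot be told apart. The 8 other female libraries (4 ND-fed WT and 4 ND-fed Cyp2b-null) and the 8 CDAHFD-fed males are used below only where the genotype difference on CDAHFD is set against that on ND or in males.

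Cyp2b enzymes are cytochrome P450 monooxygenases of the hepatocyte endoplasmic reticulum that oxidize drugs, steroids and unsaturated fatty acids. Cyp2b9 and Cyp2b13 are typically more highly expressed in female than in male mouse liver, and Cyp2b10 is the classical target of the nuclear receptor CAR, the constitutive androstane receptor. A diet without choline limits phosphatidylcholine synthesis and the export of triglyceride in very low density lipoprotein, so that liver fat accumulates and inflammation and fibrosis follow. The comparison addresses whether the liver transcriptome of mice on such a diet differs when the hepatic Cyp2b enzymes are missing.

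The 3 deleted genes lie together on mouse chromosome 7. The interval from the first base of Cyp2b10 to the last base of Cyp2b9 is chr7:25897658-26210661 (GRCm38.p6), or 313 kb, and holds 5 entries of the count table. Cyp2b9 and Cyp2b13 are near copies of each other, and so are the neighbours Cyp2a4 and Cyp2a5, the genes of the surrounding cluster with the largest differences between the genotypes. The first 250 bases of the promoter entry of these genes are given below from RefSeq (plus strand), because they show how alike the members of each pair are. For Cyp2b10, Cyp2a4 and Cyp2a5 they end just before the first base of the gene. For Cyp2b9 and Cyp2b13 they run into the gene, whose first base is chr7:26173350 for Cyp2b9 and chr7:26061388 for Cyp2b13. Capitals mark bases that differ from the partner in a pairwise alignment, which is Cyp2b13 for Cyp2b9, Cyp2a5 for Cyp2a4 and Cyp2b9 for Cyp2b10, and the reverse for Cyp2b13 and Cyp2a5.
Cyp2b9, chr7:26173159-26173408: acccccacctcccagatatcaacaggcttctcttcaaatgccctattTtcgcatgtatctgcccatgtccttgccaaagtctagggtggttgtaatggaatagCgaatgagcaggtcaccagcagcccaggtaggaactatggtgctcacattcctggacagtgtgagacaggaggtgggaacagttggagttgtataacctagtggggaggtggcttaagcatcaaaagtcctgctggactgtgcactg
Cyp2b13, chr7:26061245-26061494: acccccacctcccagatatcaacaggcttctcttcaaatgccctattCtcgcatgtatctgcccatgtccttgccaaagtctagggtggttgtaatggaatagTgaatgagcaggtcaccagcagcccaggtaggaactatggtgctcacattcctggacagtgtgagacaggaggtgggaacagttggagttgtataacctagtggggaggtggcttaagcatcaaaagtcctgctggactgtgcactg
Cyp2b10, chr7:25897408-25897657: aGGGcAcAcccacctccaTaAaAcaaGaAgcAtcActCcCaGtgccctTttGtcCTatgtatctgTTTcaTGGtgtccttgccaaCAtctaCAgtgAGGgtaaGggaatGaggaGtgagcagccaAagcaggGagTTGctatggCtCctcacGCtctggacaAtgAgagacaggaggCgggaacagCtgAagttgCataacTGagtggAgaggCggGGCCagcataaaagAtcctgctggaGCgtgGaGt
Cyp2a4, chr7:26306942-26307191: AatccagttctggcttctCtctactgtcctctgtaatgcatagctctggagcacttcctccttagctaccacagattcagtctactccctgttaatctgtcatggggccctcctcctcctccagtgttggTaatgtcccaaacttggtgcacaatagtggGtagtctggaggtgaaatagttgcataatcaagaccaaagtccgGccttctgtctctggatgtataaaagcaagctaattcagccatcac
Cyp2a5, chr7:26835089-26835338: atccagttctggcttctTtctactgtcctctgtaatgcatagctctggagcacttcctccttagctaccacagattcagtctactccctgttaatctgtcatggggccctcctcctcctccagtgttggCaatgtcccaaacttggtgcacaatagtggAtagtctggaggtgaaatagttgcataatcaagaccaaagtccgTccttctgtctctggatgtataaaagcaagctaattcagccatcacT
Cyp2b9 and Cyp2b13 were identical at 248 of 250 aligned positions, Cyp2a4 and Cyp2a5 at 245 of 251, and Cyp2b10 and Cyp2b9 at 187 of 262. The transcribed parts were compared by exact shared windows, a measure that cannot be set against identity by position. Of all windows of 100 bases in the longest Cyp2b9 transcript (GENCODE vM21), 1.18% also occurred in Cyp2b13, and 11.2% of those of Cyp2a4 occurred in Cyp2a5. With windows of 150 bases the shares were 0% and 4.22%. No window of either length was shared between a Cyp2b and a Cyp2a transcript among those compared.

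The deleted genes were measured first, because they check the labels. Read counts scaled to library size (CPM, counts per 1e6 reads, with TMM scaling, the trimmed mean of M values) of Cyp2b9 were 257, 186, 162 and 110 in the WT livers (replicates 1 to 4) and 1.04, 1.15, 0.361 and 0.498 in the Cyp2b-null livers. Cyp2b13 stood at 218, 181, 96.3 and 81.9 CPM in WT and at 0.26, 0, 0.18 and 0.124 CPM in Cyp2b-null, where no library held more than 1 read. Cyp2b10 was expressed at a much lower level in these females, with 14.7, 7.28, 4.3 and 9.67 CPM in WT and 0.26, 0.164, 0 and 0 CPM in Cyp2b-null. The groups were far apart for each of the 3 genes, and every library matched its genotype label.

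These were the 3 genes called in the comparison, from 13226 tested. All 3 were lower in Cyp2b-null by edgeR's quasi-likelihood test with Benjamini-Hochberg adjustment over all genes tested, and 0.0227% of the genes tested were called. Cyp2b9 fell by 7.89 on the log2 scale (SE 0.312, adjusted p = 5.24e-13, lower in 4 of 4 Cyp2b-null livers). The counts of Cyp2b13 and Cyp2b10 did not pass 3 reads in any Cyp2b-null library, so their changes are given as bounds against a floor of 3 reads per library. The bound was at least 264-fold lower for Cyp2b13 (adjusted p = 3.7e-10). For Cyp2b10 it was at least 16.5-fold lower (adjusted p = 6.8e-06). Without Cyp2b-null replicate 3 the same 3 genes were called, which was 0.0226% of 13251.

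**Figure D1:**
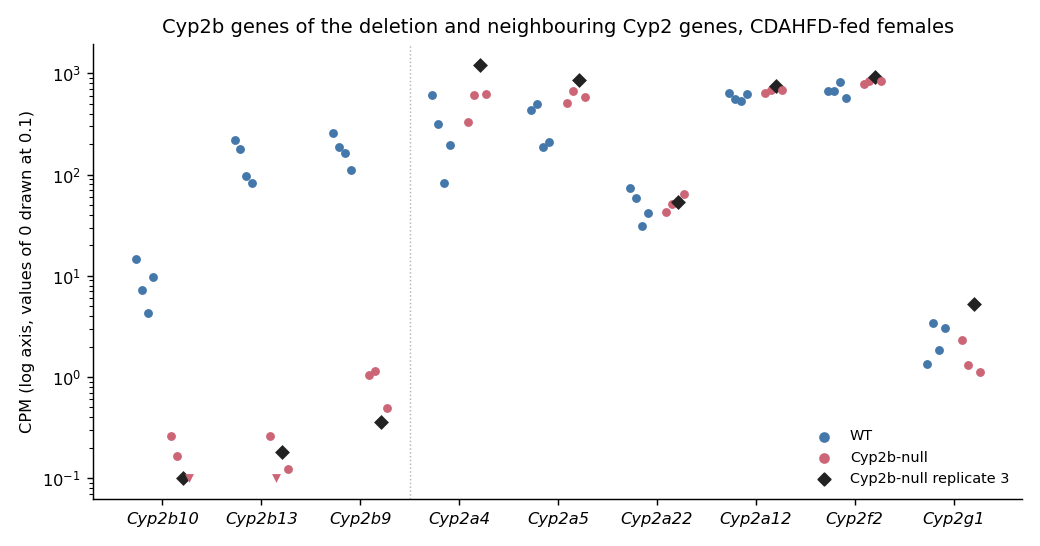
CPM on a log axis of the deleted genes Cyp2b10, Cyp2b13 and Cyp2b9 and of neighbouring Cyp2 genes in each CDAHFD-fed female library (points, values of 0 drawn at 0.1, the triangles and, for Cyp2b10, the diamond). WT values of the deleted genes lie between 4.3 and 257 and Cyp2b-null values at or below 1.15, while Cyp2a4 and Cyp2a5 are highest in Cyp2b-null replicate 3 at 1220 and 857.

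Cyp2b-null replicate 3 stood apart from the other CDAHFD-fed female libraries. Its log2 CPM correlated with the others at r = 0.932 to 0.95 across genes, while the 7 others correlated with each other at 0.967 to 0.981. Its departure followed transcript length. Relative to the WT mean, the median gene of the shortest length decile was at 0.4 and that of the longest decile at -0.56 on the log2 scale in this library, whereas the decile medians of the other 7 libraries stayed between -0.073 and 0.089. Lengths were medians over GENCODE transcripts and were found for 94.2% of the genes tested. Across genes, the fitted log2 change correlated with log2 length at Spearman's rho = -0.273 with all 8 libraries and at -0.0598 without replicate 3, as a description of genes that share these libraries. Counted reads ran from 3562594 to 6873396 in the 8 libraries and were 5676378 in replicate 3, so that its depth was not low. Values without that library are given below beside those with it.

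**Figure D2:**
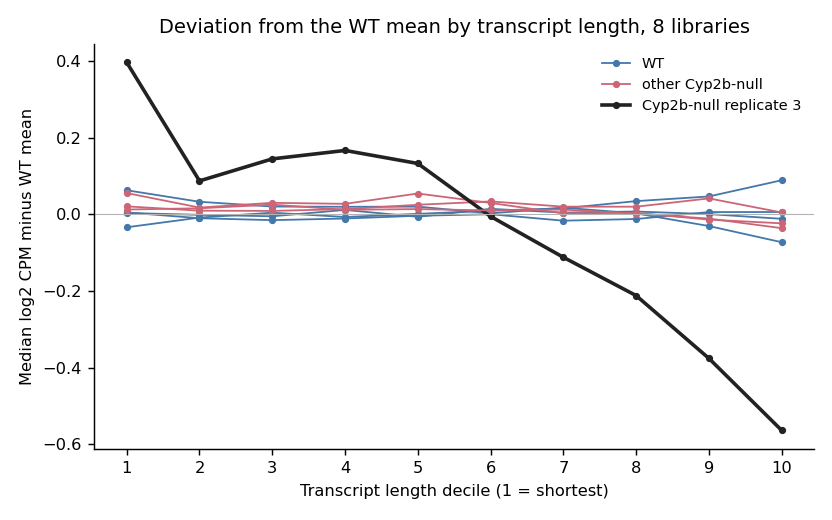
Median log2 CPM minus the WT mean for genes in 10 bins of transcript length (1 = shortest), one line for each CDAHFD-fed female library. Cyp2b-null replicate 3 runs from 0.4 to -0.56 and the other 7 lines stay between -0.073 and 0.089.

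No gene outside the deletion passed the adjusted threshold, and 771 genes (5.83%) had an unadjusted p under 0.05. Of these, 440 (3.33%) were higher and 331 (2.5%) lower in Cyp2b-null. Without replicate 3 there were 381 (2.88% of 13251), and 252 genes were in both sets with the same sign, which was 32.7% of the first and 66.1% of the second. The groups did not overlap in 374 genes (2.83%). At any p, 48.9% of the genes were higher in Cyp2b-null with all libraries and 50.5% without replicate 3, and the median change over all genes was -0.0068 and 0.002. These shares are the background for the gene lists below, for which no test of a list was made.

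At the pathway level, 30 of the 42 pathway and marker lists with at least 8 tested members had a median above 0. The largest median of a metabolic list was that of the nuclear-encoded respiratory chain subunits, the parts of complexes I to V of mitochondrial electron transport, at 0.26, and the lowest was that of glucocorticoid-induced genes at -0.38. Without replicate 3 the first was at 0.053 and the second stayed at -0.38. The respiratory chain, lipoprotein, macrophage, NRF2 and T cell medians shrank most when it was left out, while those of the drug-metabolizing enzymes, pericentral genes, glucocorticoid-induced genes and acute phase genes moved less. Both sets of medians are drawn in the plot of list medians.

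**Figure D3:**
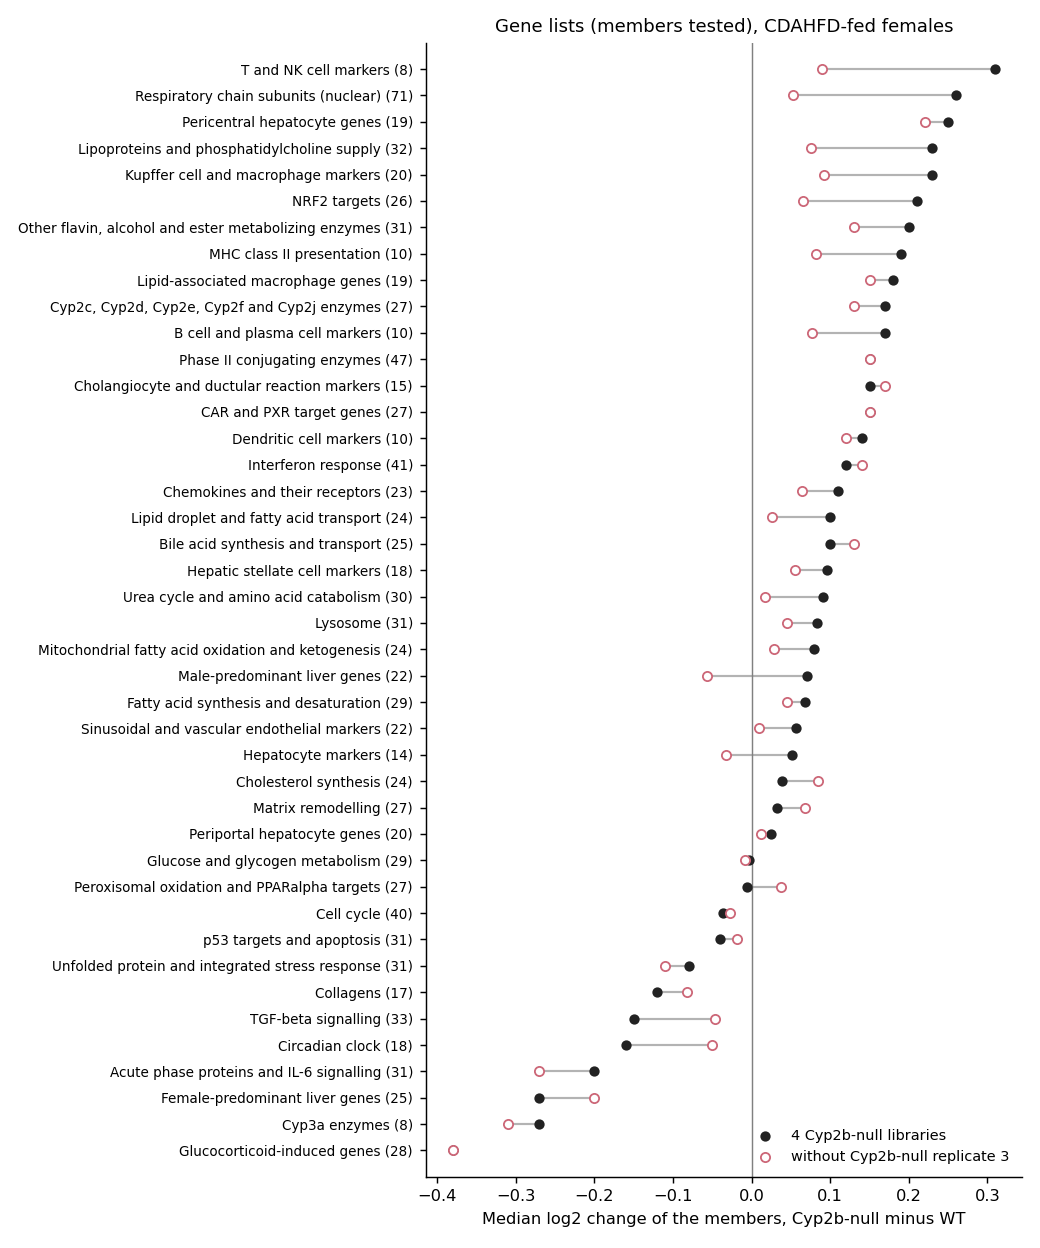
Median log2 change (Cyp2b-null minus WT) of the members of each gene list with all libraries (filled) and without Cyp2b-null replicate 3 (open), with the number of members tested in parentheses. The respiratory chain list moves from 0.26 to 0.053, whereas the glucocorticoid-induced list is at -0.38 in both.

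Of 71 respiratory chain subunits tested, 68 were higher in Cyp2b-null, against 48.9% of all genes, and 17 had an unadjusted p under 0.05, all of them higher. None was called and in none did the groups separate without overlap. Without replicate 3, 47 of 71 were higher, none had an unadjusted p under 0.05 and the median was 0.053. The mean log2 level of the list, relative to the WT mean, was 0.7 in replicate 3, 0.054, 0.087 and 0.014 in the other Cyp2b-null livers and between -0.067 and 0.07 in WT. The median transcript length of the list was 595.5 bases, which falls in the shortest length decile. With an offset for each library that followed transcript length, 67 of 71 were higher and the median was 0.17. With libraries weighted by their quality (voom), the median was 0.065.

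Single subunits showed the same arrangement of libraries. Atp5b, the beta subunit of ATP synthase and the most abundant member, stood at 1320, 1150, 1270 and 1080 CPM in WT and at 1270, 1180, 1470 and 1350 CPM in Cyp2b-null (log2 change 0.13 ± 0.119 SE, and 0.07 without replicate 3). Ndufv3, a complex I subunit, was at 60, 58.7, 59.4 and 69.4 CPM in WT and at 83.3, 66.3, 119 and 68.7 CPM in Cyp2b-null (log2 change 0.44, and 0.23 without replicate 3). The complex I subunit Ndufb2 stood at 35.3 to 49.5 CPM in WT, at 102 CPM in replicate 3 and at 45.8 to 53.9 CPM in the other Cyp2b-null livers. In each of these 3 genes the highest library was replicate 3, and the groups overlapped. Ndufs7 and Ndufa4 followed, with 143 and 387 CPM in replicate 3 against at most 81 and 231 CPM in any other library.

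Cytosolic ribosomal proteins, followed as a technical list of short transcripts, were higher in 59 of 73 members with all libraries (median 0.25) and 36 of 73 without replicate 3. With the length offset 57 of 73 were still higher (median 0.18), so the offset left much of the shift in this technical list as well. The list's level in replicate 3 was 0.7, as high as that of the respiratory chain. The part of library quality in the respiratory chain values was not tested.

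Lipoprotein and phosphatidylcholine genes, which package and export hepatic lipid, were higher in 23 of 32 members (median 0.23, and 0.075 without replicate 3). Apoe, the apolipoprotein of remnant particles, stood at 22000, 22800, 23300 and 21300 CPM in WT and at 22800, 23600, 39300 and 23000 CPM in Cyp2b-null (log2 change 0.28, and 0.05 without replicate 3). Apoa2, an apolipoprotein of high density particles, showed 5200 to 6220 CPM in WT, 11400 CPM in replicate 3 and 5740 to 7050 CPM in the others. Apoa5, which promotes triglyceride clearance, had a log2 change of 0.36 (0.19 without replicate 3). Chka, choline kinase alpha and the first enzyme of phosphatidylcholine synthesis from choline, was the one member with an unadjusted p under 0.05 on the lower side. It was at 37.2, 52.1, 66 and 64 CPM in WT and at 34.3, 35, 22.4 and 38.8 CPM in Cyp2b-null (log2 change -0.75 ± 0.274 SE and not called), and -0.61 without replicate 3. The lowest WT liver lay just below the highest Cyp2b-null liver.

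Mitochondrial fatty acid oxidation and ketogenesis had 18 of 24 members higher with a median of 0.079, none at an unadjusted p under 0.05, and 14 of 24 higher without replicate 3. Etfb, the beta subunit of the electron transfer flavoprotein, was at 584 CPM in replicate 3 and at 271 to 315 CPM in the other 7 livers. Ppargc1a, a coactivator of mitochondrial genes, had a log2 change of -0.40 ± 0.258 SE (-0.25 without replicate 3) with overlapping groups.

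Peroxisomal oxidation and PPARalpha target genes were higher in 13 of 27 members (median -0.0055), with none at an unadjusted p under 0.05, and in 18 of 27 without replicate 3 (median 0.037, 1 at that p). Acaa1b, a peroxisomal thiolase, had a log2 change of 0.42 ± 0.214 SE (0.31 without replicate 3), with overlapping groups. Fatty acid synthesis and desaturation genes were higher in 18 of 29 members (median 0.068), again with none at an unadjusted p under 0.05, and in 16 of 29 without replicate 3 (median 0.045). Fads2, the delta-6 desaturase of polyunsaturated fatty acid synthesis, ran from 366 to 696 CPM in WT and from 508 to 806 CPM in Cyp2b-null. Lpin1, a phosphatidate phosphatase, was at 32.1, 91.4, 33.6 and 112 CPM in WT and at 31.4, 51.5, 38.4 and 30.8 CPM in Cyp2b-null, with a log2 change of -0.82 (-0.83 without replicate 3) and the 2 highest values in WT livers. For all 3 lists the levels of the libraries overlapped between the genotypes.

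Enzymes of foreign compound metabolism were higher in most members, and this held without replicate 3. Of 47 phase II conjugating enzymes, 35 were higher and 8 had an unadjusted p under 0.05, all higher (36 higher, 6 at that p and a median of 0.15 without replicate 3). Cyp2c, Cyp2d, Cyp2e, Cyp2f and Cyp2j enzymes were higher in 24 of 27 members (20 without replicate 3). Targets of CAR and PXR, the receptors that sense foreign compounds, were higher in 19 of 27 (21 without replicate 3), with a median of 0.15 in both fits. None of these genes was called. The receptor target list itself holds Cyp2c and conjugating enzymes such as Cyp2c29 and Gstm1, so these lists are not independent of each other.

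Among the receptor targets, Cyp3a11, the most abundant Cyp3a enzyme of the list, was unremarkable at 2950, 2000, 1830 and 1810 CPM in WT and 2410, 2220, 1650 and 2490 CPM in Cyp2b-null. Gsta2, a glutathione S-transferase, was at 70.7, 79.6, 55.1 and 34.3 CPM in WT and at 81.8, 92.6, 102 and 86.2 CPM in Cyp2b-null. Its groups did not overlap, but its log2 change of 0.60 ± 0.269 SE (0.55 without replicate 3) was not called. The carboxylesterases Ces2c and Ces2a had log2 changes of 0.58 and 0.42 (0.66 and 0.33 without replicate 3), with overlapping groups. The Cyp3a list itself was lower in 5 of 8 members (median -0.27, and -0.31 without replicate 3), but the female-predominant Cyp3a41a was at 3.35, 11.2, 11.7 and 81.4 CPM in WT and at 4.41, 37.6, 17.5 and 6.09 CPM in Cyp2b-null. A single WT liver, replicate 4, also held the highest Cyp3a41b (16.4 CPM) and Cyp3a44 (24.2 CPM). Read sharing among the Cyp3a genes was not tested.

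Within the Cyp2 cluster around the deletion, Cyp2a4 and Cyp2a5, the latter known as the coumarin hydroxylase, had the largest differences. Cyp2a4 begins 96.5 kb beyond the end of Cyp2b9 and Cyp2a5 625 kb beyond it. Cyp2a4, a steroid hydroxylase, stood at 606, 316, 83 and 197 CPM in WT and at 330, 607, 1220 and 620 CPM in Cyp2b-null. The log2 change was 1.21 ± 0.412 SE (edgeR adjusted p = 0.826), and 0.79 without replicate 3, where the unadjusted p was above 0.05. Cyp2a5 was at 434, 495, 187 and 210 CPM in WT and at 508, 670, 857 and 591 CPM in Cyp2b-null, without overlap, with a log2 change of 0.99 ± 0.363 SE (0.83 without replicate 3). Neither was called. With no filter on low counts both were, at edgeR adjusted p = 4.09e-10 for Cyp2a4 and 2.74e-06 for Cyp2a5. That setting newly called 22 of the named genes. Its calls fell also on genes whose groups overlapped, such as Cyp2a4 and A1bg (edgeR adjusted p = 1.78e-12 for A1bg), so no conclusion is drawn from them. Given the transcript windows the pair share, some reads of one could be counted for the other, and how many was not tested.

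The other members of the cluster differed less. Cyp2f2, an epithelial and hepatic naphthalene-metabolizing enzyme, was at 575 to 817 CPM in WT and at 785 to 931 CPM in Cyp2b-null (log2 change 0.32 ± 0.127 SE, and 0.28 without replicate 3). Cyp2a12 had a log2 change of 0.24, Cyp2a22 of 0.04 and Cyp2g1 of 0.00 (0.19, 0.04 and -0.70 without replicate 3), and the groups overlapped in each. The cluster's other Cyp2b genes, Cyp2b19 and Cyp2b23, had 0 reads in all 8 libraries. The pseudogene Rnf170-ps (chr7:26071797-26075756, within Cyp2b13) had reads in all Cyp2b-null libraries, and which bases of the interval the deletion removes is not given in the sources used here. It had 29, 21, 15 and 15 reads in WT and 7, 10, 3 and 16 reads in Cyp2b-null (log2 change -1.45 ± 0.394 SE, not called, and -1.17 without replicate 3). Of 17 tested genes beside the cluster, 10 were higher, with a median of 0.094 (0.0019 without replicate 3). Blvrb, biliverdin reductase B, was the one with an unadjusted p under 0.05 (log2 change 0.44, and 0.17 without replicate 3).

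Glucocorticoid-induced genes, targets of the glucocorticoid receptor, were lower in 24 of 28 members. The median was -0.38 both with and without replicate 3, 4 members had an unadjusted p under 0.05 with all libraries and 5 without replicate 3, all lower, and none was called. The level of the list was -0.33, -0.15, -0.43 and -0.53 in the Cyp2b-null livers, while the WT livers divided into -0.35 and -0.41 (replicates 1 and 3) and 0.25 and 0.52 (replicates 2 and 4). The groups therefore overlapped, and the median was -0.2 without WT replicate 4 and -0.53 without WT replicate 1.

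Zbtb16, a zinc finger protein strongly induced by glucocorticoids, was at 16.3, 31.3, 8.61 and 66.4 CPM in WT and at 5.45, 8.88, 2.16 and 13.4 CPM in Cyp2b-null (log2 change -1.99 ± 0.614 SE, edgeR adjusted p = 0.826, and -1.68 without replicate 3). Fkbp5, a co-chaperone of the receptor, was at 11.4, 10.9, 14.6 and 21.1 CPM in WT and at 8.57, 8.38, 9.02 and 5.72 CPM in Cyp2b-null, without overlap (log2 change -0.90, and -0.99 without replicate 3). Ddit4, an inhibitor of mTORC1 signalling, had a log2 change of -0.90 ± 0.372 SE (-0.66 without replicate 3, with an unadjusted p above 0.05) with overlapping groups. Pck1, the gluconeogenic enzyme and the most abundant member, was at 1610, 2690, 433 and 2430 CPM in WT and at 1530 to 1760 CPM in Cyp2b-null, with overlapping groups. WT livers held both the lowest and the highest Pck1 values.

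The promoters of the list were searched for a loose form of the glucocorticoid response element, GNACANNNTGTNC on either strand (the pattern is its own reverse complement), in the 300 bases around the start site (RefSeq, GRCm38.p6). A match was found in 3 of 26 list genes with a promoter entry (11.5%) and in 0.537% of 27025 genes in all. The list was made of known glucocorticoid-induced genes, which favours a higher share in advance, so this contrast is no result about these livers. The matches are given below with the motif in capitals, since they show the few members in which the element lies close to the start.
Sgk1, chr10:21993687-21993729, plus strand: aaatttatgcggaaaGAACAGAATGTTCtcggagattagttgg
Mt1, chr8:94178980-94179022, plus strand: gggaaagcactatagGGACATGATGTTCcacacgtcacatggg
Fam107a, chr14:8309870-8309912, minus strand: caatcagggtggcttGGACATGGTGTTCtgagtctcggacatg
Sgk1, a serum- and glucocorticoid-regulated kinase, had a log2 change of -0.34 and Mt1, a metallothionein, of -0.73 (-0.32 and -0.95 without replicate 3), both with an unadjusted p above 0.05. Fam107a did not pass the count filter and has no fitted value, and Fkbp5 and Ddit4 had no match in this window.

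Acute phase and IL-6 signalling genes were lower in 25 of 31 members (median -0.2), and in 29 of 31 without replicate 3 (median -0.27). Stat3, the transcription factor of the IL-6 response, was at 111, 113, 127 and 118 CPM in WT and at 95.8, 93.4, 72.5 and 102 CPM in Cyp2b-null, without overlap (log2 change -0.37 ± 0.121 SE, edgeR adjusted p = 0.826, and -0.27 without replicate 3). Il6ra, the IL-6 receptor, stood at 31.2, 37.8, 35.3 and 34.2 CPM in WT and at 27, 26, 9.74 and 18.7 CPM in Cyp2b-null, also without overlap (log2 change -0.78 ± 0.297 SE). Its lowest value was replicate 3, and without it the log2 change was -0.55 with an unadjusted p above 0.05. Among the secreted proteins, the fibrinogen chains Fga, Fgb and Fgg had log2 changes of -0.30, -0.19 and -0.20, and Lcn2, an iron-scavenging lipocalin, of -0.75. Hpx, the heme-binding hemopexin, was at 0.10 (-0.10 without replicate 3) and the serum amyloid Saa3 at 0.64 (0.30 without replicate 3). The level of the list overlapped between the genotypes. It was -0.38, -0.057, -0.19 and 0.62 in WT (replicates 1 to 4) and -0.047, -0.15, 0.069 and -0.46 in Cyp2b-null. Only WT replicate 4 lay above the Cyp2b-null range, so the lower level of the list in Cyp2b-null leaned on that 1 WT liver.

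Zonation and sex-dependent lists were examined because Cyp2b9 and Cyp2b13 belong to the female program. Pericentral hepatocyte genes were higher in 13 of 19 members (median 0.25, and 0.22 without replicate 3), and 3 of them were higher and 1 lower at an unadjusted p under 0.05. The major pericentral enzyme Cyp2e1 ranged from 3440 to 5860 CPM in WT and from 5390 to 6590 CPM in Cyp2b-null. Cyp27a1, the sterol 27-hydroxylase, was at 192 to 227 CPM in WT and at 241 to 309 CPM in Cyp2b-null, without overlap (log2 change 0.30 ± 0.116 SE, and 0.22 without replicate 3). Ahr, the aryl hydrocarbon receptor, was the one member with an unadjusted p under 0.05 on the lower side, with 49.7, 53.6, 55.3 and 61.7 CPM in WT and 37.1, 46.9, 24.9 and 45.3 CPM in Cyp2b-null (log2 change -0.51 ± 0.186 SE, and -0.35 without replicate 3).

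Female-predominant liver genes were lower in 18 of 25 members (median -0.27, and -0.2 without replicate 3). The members were far from uniform, since Cyp2a4 was the one with an unadjusted p under 0.05 on the higher side and A1bg and Nipal1 were lower. A1bg, a secreted immunoglobulin-like glycoprotein, was at 31, 4.12, 22.1 and 106 CPM in WT and at 3.37, 15.6, 23.3 and 16.5 CPM in Cyp2b-null. Nipal1, a magnesium transporter, was at 37.5, 29.3, 35.7 and 25.6 CPM in WT and at 21.3, 26.1, 17.1 and 10.4 CPM in Cyp2b-null (log2 change -0.78 ± 0.285 SE, and -0.75 without replicate 3). Levels of the list ran from -0.7 to 0.57 in WT and from -0.52 to 0.49 in Cyp2b-null, so the spread within a genotype exceeded the difference.

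**Figure D4:**
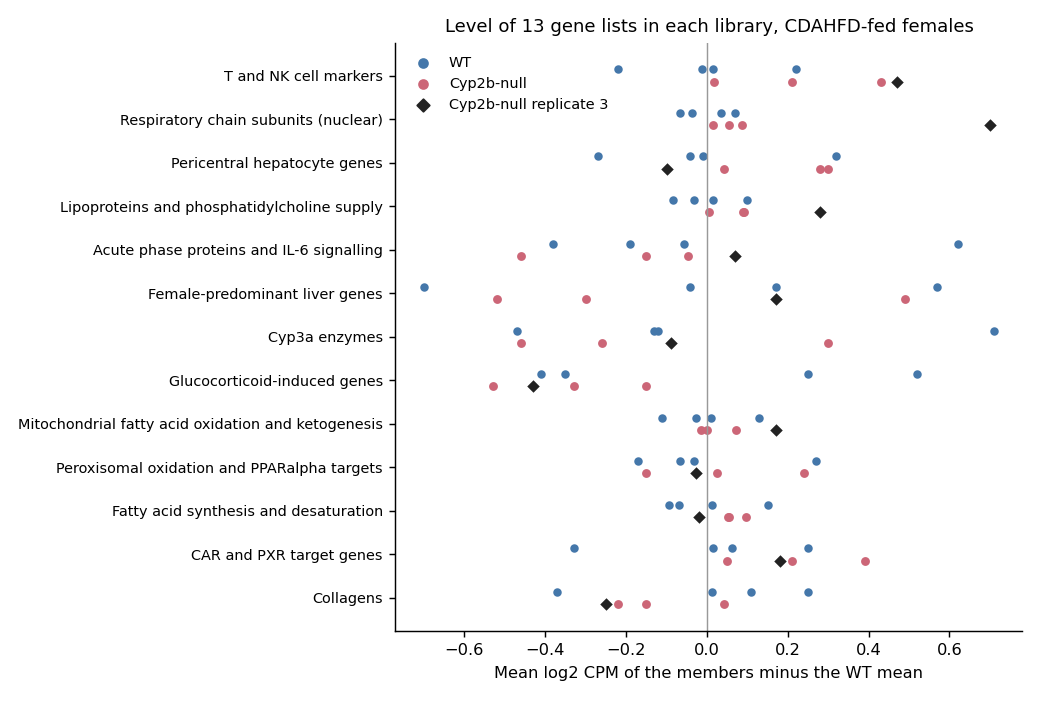
Mean log2 CPM of the members of 13 gene lists in each CDAHFD-fed female library, relative to the WT mean (x axis), with WT above and Cyp2b-null below on each line. Cyp2b-null replicate 3 is alone at 0.7 for respiratory chain subunits, and the levels of the groups overlap in each of the 13 lists.

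Fibrosis-related genes differed little. Collagens were lower in 12 of 17 members tested (median -0.12, and -0.082 without replicate 3), with 3 lower and none higher at an unadjusted p under 0.05. These 3 did not include the fibrillar collagens of scar tissue. Col4a1 and Col4a2, the chains of basement membrane collagen, were at 84.3, 103, 119 and 125 CPM and at 52.9, 51.2, 70.5 and 55.3 CPM in WT, and at 73.2, 92.1, 74.5 and 83.5 CPM and 38.2, 42.9, 37.3 and 49.9 CPM in Cyp2b-null. Their log2 changes were -0.42 ± 0.152 SE and -0.45 ± 0.155 SE, and -0.38 and -0.39 without replicate 3, and Col4a2 did not overlap. Col16a1 followed at -0.76 ± 0.28 SE (-0.82 without replicate 3). Col1a1, the main fibrillar collagen chain, stood at 49.1, 69.1, 84 and 75.4 CPM in WT and 63.3, 86.6, 77 and 62.7 CPM in Cyp2b-null (log2 change 0.06 ± 0.277 SE, and 0.03 without replicate 3). Acta2, the actin of activated stellate cells, had a log2 change of -0.38 ± 0.315 SE (-0.48 without replicate 3), and TGF-beta signalling genes were higher in 10 of 33 members both with and without replicate 3.

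Markers of other cells in the liver were read as levels of RNA in bulk tissue, in which fewer cells and less RNA per cell cannot be told apart. Of the 8 tested T and NK cell markers, 5 were higher and 3 lower (median 0.31). Without replicate 3, 5 of the 7 tested were higher (median 0.09). The lower ones with all libraries were Il7r, Cd247 and Klrk1, with log2 changes of -0.36, -0.24 and -0.02 (-0.44, -0.06 and 0.07 without replicate 3). Summed over the 35 markers in the table, none at 0 in every library, the level was 44.4 to 53.8 CPM in WT and 57.4 to 78.6 CPM in Cyp2b-null, with the highest value in replicate 3. The detection floor of 3 reads lay between 0.373 and 0.779 CPM, and of the more abundant markers Zap70 ranged from 8.22 to 23.3 CPM and Foxp3 from 5.33 to 10.5 CPM. The T cell markers Cd3e and Cd4 reached at most 1.87 and 1.3 CPM, so the sum leaned on a few members. These maxima lay below the lowest values of Zap70 and Foxp3, and whether the Zap70 and Foxp3 reads came from T cells was not tested. Trbc2, a T cell receptor constant chain, was at 2.45, 1.94, 1.23 and 0.644 CPM in WT and at 2.6, 2.3, 2.71 and 3.98 CPM in Cyp2b-null (log2 change 0.95 ± 0.395 SE, not called, and 0.996 without replicate 3). Nkg7, a cytotoxic granule protein, had a log2 change of 0.90, and 0.47 without replicate 3. Zap70, the kinase of the T cell receptor, was at 23.3 CPM in replicate 3 and at 13.6 to 14 CPM in the other Cyp2b-null livers.

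Kupffer cell and macrophage markers were higher in 15 of 20 members (median 0.23, and 0.092 without replicate 3), and their level summed over all 20 was 1550 to 1830 CPM in WT and 1590 to 2460 CPM in Cyp2b-null, highest in replicate 3. Cd68, a macrophage lysosomal protein, had a log2 change of 0.01 ± 0.197 SE (-0.12 without replicate 3). Trem2, a receptor of lipid-associated macrophages, had 0 reads in all 8 libraries. It was the 1 member at 0 in every library among the 20 lipid-associated macrophage genes. Others of that list were well above the floor, such as Gpnmb at 146 to 327 CPM and Mmp12 at 115 to 206 CPM. The absence of Trem2 reads is therefore not read as absence of these cells, and its cause was not tested. Erythroid markers summed to 862 CPM in replicate 3, against 227 to 358 CPM in WT. Hepatocyte markers were summed to 133000 to 151000 CPM in WT and 118000 to 180000 CPM in Cyp2b-null, again highest in replicate 3, and none of the hepatocyte markers in the table was at 0. The part of blood or immune cell content in the list values was not tested.

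Of the genes the study names for females, 14 were tested and 3 of them were higher and 2 lower at an unadjusted p under 0.05, and none was called. These genes were chosen from these same samples, so their direction is no independent evidence. Ppp1r3b, a regulatory subunit that targets protein phosphatase 1 to glycogen, was at 110, 45.1, 54.9 and 64.4 CPM in WT and at 29.9, 38.8, 18.8 and 32.5 CPM in Cyp2b-null, without overlap (log2 change -1.19 ± 0.26 SE, edgeR adjusted p = 0.427, and -1.02 without replicate 3). It was called by DESeq2 and with no filter on low counts. Calml4, a calmodulin-like protein, had a log2 change of 1.02 ± 0.4 SE and 1.25 without replicate 3. G6pc, the glucose-6-phosphatase of gluconeogenesis, was at 51.1, 172, 74.4 and 111 CPM in WT and 72.6 to 81.2 CPM in Cyp2b-null (log2 change -0.40, and -0.41 without replicate 3). Changes of Ccr7, Tgfb2, Acvrl1, Cyp17a1 and Akr1b8 were between -0.22 and 0.86 (-0.48 and 0.63 without replicate 3) with overlapping groups. Cd8b1, Nfatc2 and Tnfrsf18 were below the count filter. Cd8b1 was at 0.161 to 0.728 CPM in WT and 0.902 to 1.64 CPM in Cyp2b-null.

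Outside the lists, 10 genes higher and 10 lower in Cyp2b-null were taken by smallest unadjusted p among genes whose groups did not overlap and whose mean reached 1 CPM. All 20 kept their sign and an unadjusted p under 0.05 without replicate 3. The choice by p and by groups that do not overlap was made in the same libraries. It fixes the sign in advance and favours a small p. The entry LOC101056219 came closest to a call. It stood at 49.5, 73.3, 66 and 56.2 CPM in WT and at 40, 37.5, 31.9 and 34.1 CPM in Cyp2b-null (log2 change -0.77 ± 0.139 SE, edgeR adjusted p = 0.0561). It passed the threshold by DESeq2, with voom library weights, with a length offset, with no filter on low counts and without WT replicate 1. Its adjusted p was 0.142 without Cyp2b-null replicate 3, 0.0235 to 0.397 over all single libraries left out, and 0.543 when only the groups compared were fitted. Its log2 change was -0.57 in ND-fed females and -0.57 in CDAHFD-fed males. Sall1, a zinc finger transcription factor, was at 33.2 to 38.3 CPM in WT and at 16.6 to 25.5 CPM in Cyp2b-null (log2 change -0.84 ± 0.193 SE, and -0.76 without replicate 3).

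The other lower genes were Cep85l, Aak1, Spire1, Rnf170-ps, Adam11, Fam13b, Avpr1a and Ppp1r3b, with log2 changes between -1.73 and -0.56. Cep85l, a centrosomal protein, was at 8.7, 14.6, 8.81 and 15.6 CPM in WT, at 0 CPM in replicate 3 and at 4.35 to 5.26 CPM in the other Cyp2b-null livers. Avpr1a, the vasopressin receptor of hepatocytes, was at 25.5 to 47.1 CPM in WT and at 15.9 to 23.4 CPM in Cyp2b-null. The higher genes were Gm6023, Use1, Ftsj1, Gm5356, Gstk1, Mcm10, Sgce, Gm6204, Nat8f1 and Ndufaf2, and 3 of them are annotated as pseudogenes (Gm6023, Gm5356 and Gm6204), whose reads can come from a parent gene. Gstk1, a mitochondrial and peroxisomal glutathione transferase, was at 72.4 to 89.5 CPM in WT and at 92.3 to 150 CPM in Cyp2b-null (log2 change 0.52 ± 0.141 SE, and 0.36 without replicate 3). Ndufaf2, an assembly factor of complex I, was at 9.67 to 13.2 CPM in WT and at 15.1 to 20 CPM in Cyp2b-null. Adjusted p-values of these genes were 0.427 to 0.826 apart from LOC101056219.

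**Figure D5:**
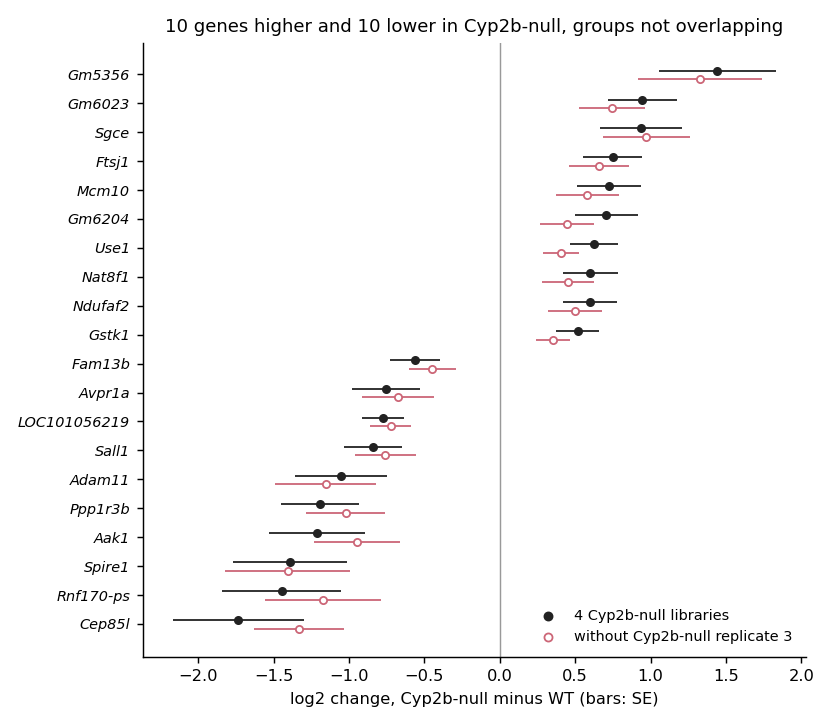
Log2 change (Cyp2b-null minus WT, x axis) with its SE for the 10 higher and 10 lower genes, with all libraries (filled) and without Cyp2b-null replicate 3 (open). All 20 keep their side of 0, from -1.73 for Cep85l to 1.44 for Gm5356.

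The genotype difference on CDAHFD was set against that on ND, which was measured in separate livers. On ND, 10 genes were called (0.0756% of 13226), the 3 deleted genes and 7 others. The test of the difference between the diets called 0 genes by edgeR (0%), with 830 genes (6.28%) at an unadjusted p under 0.05 and 2 genes called by DESeq2. The median of the glucocorticoid-induced list was -0.37 on ND with 5 of 28 members higher, next to -0.38 and 4 of 28 on CDAHFD. Zbtb16 had log2 changes of -2.05 on ND and -1.99 on CDAHFD, and Ddit4 of -1.82 and -0.90. Fkbp5 was -0.05 on ND against -0.90 on CDAHFD, a difference that was not called. The respiratory chain list had a median of -0.089 on ND with 14 of 71 members higher, and interferon response genes had a median of -0.28 on ND and 0.12 on CDAHFD. On ND, 18 of 47 phase II enzymes, 11 of 27 CAR and PXR targets and 16 of 27 members of the Cyp2c to Cyp2j list were higher.

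Cyp2a4 had a log2 change of 0.84 on ND, Cyp2a5 of 0.31, Ppp1r3b of -0.76 and Chka of -0.66. Col4a1 and Col4a2 were at -0.04 and 0.00 on ND. Stat3 was at 0.12 and Il6ra at -0.14. None of these differences between the diets was called.

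In CDAHFD-fed males, measured in a separate table and fitted together with the females, the genotype difference differed from that in females in 1 gene (0.00713% of 14020), with 439 (3.13%) at an unadjusted p under 0.05. Cyp2a4 had a log2 change of 2.64 in males, next to 1.21 in females, and the difference between the sexes was not called. The glucocorticoid-induced list had a median of 0.046 in males with 16 of 28 members higher, collagens had a median of 0.19 with 15 of 18 higher, and the respiratory chain list had a median of 0.001. Phase II enzymes were higher in 21 of 47 members in males, against 35 of 47 in females. CAR and PXR targets were higher in 11 of 27 in males, against 19 of 27 in females. For the Cyp2c to Cyp2j list the counts were 5 of 27 and 24 of 27. No test was made of these list differences.

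Nnt and Wdfy1, genes used to tell C57BL/6 substrains apart, had log2 changes of -0.05 and -0.15 with overlapping groups, and Cyfip2 had a log2 change of 0.71 ± 0.368 SE (0.87 without replicate 3, where Nnt was at 0.09). All 16 female libraries held at least 798 reads of Xist and at most 1 read of the Y-linked Ddx3y.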

How the data were processed

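RNA was measured in livers of 32 mice. Per the labels and the study's methods, the authors trimmed reads with Trimmomatic, aligned them to GRCm38.p6 with GSNAP and counted them per gene with Subread featureCounts; versions, strand and multi-mapping settings are not given in the sources used here. The deposited values are raw counts per gene for 41585 entries. Here edgeR 4.0.16 (TMM, filterByExpr, quasi-likelihood test) was fitted to all 16 female libraries, 13226 genes passed the filter, and p-values were adjusted by Benjamini-Hochberg; the sex difference used all 32 libraries. The threshold for a call was an adjusted p under 0.05. limma 3.58.1 (voom) and DESeq2 1.42.0 were alternatives. List medians carry no test. The replicates are separate livers by their labels, and p-values measure the spread between them. The gene lists and comparisons were chosen with earlier results of these data known. Genes were named by rule: the deleted genes and their cluster, called genes, the 10 higher and 10 lower genes by p, genes named by the study, and leading members of 13 lists. On simulated counts for the CDAHFD female comparison (13226 genes, 200 changed), 76% of 2-fold and 99% of 4-fold changes were called, with 10 false calls among 185. The changed genes were drawn from the more abundant ones, the groups had no other difference, and no simulated library had a length trend. These rates check the code and do not give the share of real changes that would be found. Same-numbered WT and Cyp2b-null libraries did not deviate together (r = -0.096 to 0.03). Mitochondrially encoded genes were not analysed here. Floors cover counting error only. Some members of the lists are not reported here by name.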

Additional observations from a re-analysis of the deposited data

Results flagged for a closer look

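In groups of 4, a library was noted when its gap to the nearest other exceeded Dixon's 95% critical share of the group's range, which chance gives in about 1 in 20 groups. Cyp2b-null replicate 3 was such a library for the respiratory chain list (level 0.7, nearest 0.087) and for Zap70 (23.3 CPM, nearest 14), Ndufs7 (143, nearest 81), Ndufb2 (102, nearest 53.9), Apoe (39300, nearest 23600) and Etfb (584, nearest 305). In each of these it was above all other libraries. Cyp2b-null replicate 4 was so for Fads2 (806 CPM, nearest 551).

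Among WT livers, replicate 4 was apart for Ndufv3 (69.4 CPM), Hpx (9620 CPM), Cyp3a41b (16.4 CPM), Cyp3a41a (81.4 CPM) and Cyp3a44 (24.2 CPM) on the high side and for Etfb (271 CPM) and Ces2a (25.5 CPM) on the low side. WT replicate 3 was low for Itpkc (8.81 CPM) and Apoa5 (1030 CPM), and WT replicate 1 was high for Cyp3a11 (2950 CPM).

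One gene had a genotype effect on CDAHFD that differed between the sexes: the predicted gene Gm40812, at -3.66 on the log2 scale (females minus males, edgeR adjusted p = 0.0262). Its counts were 493, 985, 367 and 557 in WT and 235, 502, 175 and 725 in Cyp2b-null females, and 90, 98, 245 and 161 in WT and 1301, 887, 2220 and 681 in Cyp2b-null males.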

How the results depend on the processing

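Of 13226 genes, 3 were called on CDAHFD. The count was 69 with no low-count filter, 5 by DESeq2 and 230 by the study's 2-step rule (an adjusted edgeR test for any difference among the 4 female groups, then an unadjusted pairwise comparison). On ND the count of 10 became 122 with no filter and 23 by DESeq2. The difference between the diets (0 genes called by edgeR, 830 at an unadjusted p under 0.05) became 46 with no filter, 1 with at least 1 CPM in 4 libraries, 2 by DESeq2, 1 at an adjusted p under 0.1, and 0 to 1 with single libraries left out. The difference between the sexes (1 gene) became 49 with no filter, 2 with only the groups compared, 2 by DESeq2 and 0 to 1 with single libraries left out. Genes at an unadjusted p under 0.05 (771) were 1438 with no filter and 381 to 1093 with single libraries left out, the lowest without Cyp2b-null replicate 3. The lipoprotein median (0.23) was 0.094 with voom library weights and 0.075 to 0.28 with single libraries left out, and the T and NK cell median (0.31) was 0.54 with no filter, 0.52 with the CPM filter and 0.09 to 0.48 with single libraries left out. With a replicate block the 4 counts of calls were 3, 10, 0 and 1, and that at an unadjusted p under 0.05 was 751; the numbers do not pair the livers (same-number r -0.096 to 0.03, and no library correlated best with its own number), and the block changed no call of these. Over 108 named genes and 17 settings, 1731 values kept sign and side of the threshold, 73 changed sign (25 genes) and 27 were newly called, 22 of them with no low-count filter. LOC101056219 was also called by DESeq2, the length offset, voom and without WT replicate 1, and Ppp1r3b by DESeq2. The length offset and the voom weights were chosen after seeing the data. The causes were not tested. Depth of 3562594 to 6873396 counted reads limits the rarer immune markers.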

Other observations

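Some gene groups were described only in part above. Interferon response genes were higher in 29 of 41 members in CDAHFD-fed Cyp2b-null females (30 without replicate 3, median 0.14), with 5 at an unadjusted p under 0.05, all higher. Lipid-associated macrophage genes were higher in 17 of 19 (16 without replicate 3), and MHC class II genes in 9 of 10 (8 without replicate 3). Flavin, alcohol and ester metabolizing enzymes were higher in 25 of 31 (26 without replicate 3). B cell and plasma cell markers were the one list of the 42 whose library levels did not overlap, at -0.15 to 0.12 in WT and 0.18 to 0.6 in Cyp2b-null, where 0.6 is replicate 3, and 7 of 10 members were higher (median 0.17). Without replicate 3, 5 of 9 were higher, with a median of 0.077. Of all genes tested 48.9% were higher, and no list was tested.

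Ankrd60, chosen after its values were seen, was called on ND at -2.36 and had a log2 change of 0.24 on CDAHFD; the difference of 2.60 had an edgeR adjusted p of 0.0589.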
